A study of Mus musculus with 91 samples.

Results

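Phenobarbital is a barbiturate sedative that switches on drug-metabolising genes in the liver. Livers of 5 mice that drank phenobarbital for 56 days were set against livers of 5 mice that drank water for 56 days, with 1 array per liver. These 10 arrays were chosen by their titles from the 91 of a series on short exposures of mice to chemicals with different cancer-causing potential. The treated mice had phenobarbital at 0.05% (w/v) in the drinking water, and the water controls had 0%. All 10 were adult males of the strain labelled C57BL, described as a C57BL/6J background, with no transgene named in the labels, and had been assigned at random to their groups of 5. Mice are called by the number in their labels, such as treated mouse 5 or water mouse 5. The arrays measure whole liver, so fewer cells of a type and less RNA per cell cannot be told apart in any value given here.

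The liver senses foreign chemicals with nuclear receptors, above all the constitutive androstane receptor CAR (Nr1i3) and the pregnane X receptor PXR (Nr1i2). Phenobarbital does not bind CAR itself: it blocks signalling from the epidermal growth factor receptor, CAR loses a phosphate, enters the nucleus, pairs with the retinoid X receptor and turns on its target genes. In rodents the best known of these targets is Cyp2b10, and long exposure to phenobarbital enlarges the liver and promotes hepatocyte tumours. The gene products come in layers: cytochrome P450 enzymes oxidise foreign molecules, transferases couple them to glutathione, glucuronic acid or sulfate, and transporters of the ABC family pump the products out of the cell.

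Values were deposited as log2 expression, so a difference of 1 is a 2-fold difference, and they ranged from 2.61 to 15.34 over all arrays. For each of 18193 genes the change is given as the treated mean minus the water mean with its standard error (SE), and a gene is said to have risen or fallen where its adjusted p from limma was under 0.05. The number of arrays limits the precision of every value. Alb, the main plasma protein made by hepatocytes, averaged 15.14 in treated livers and 15.20 in water livers, and Hnf4a, a transcription factor of hepatocytes, averaged 12.55 and 12.56, so both groups read as hepatocyte-rich liver.

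Water mouse 5 stood apart from the other 4 controls and touches many results. Its correlation with its own group averaged 0.9864, against 0.9907 to 0.9919 for the other water mice, and on the first principal component of the 10 arrays it lay at 42.43 while the other 9 arrays lay between -11.7 and 7.62. In this mouse 274 genes differed by more than 1 from the mean of the other 4 controls, while the same count for each of the other 9 arrays within its group lay between 37 and 115. Genes normally higher in female liver were among them. The female-biased P450 gene Cyp2b9 read 11.33 in water mouse 5 and 3.55 to 4.00 in water mice 1 to 4, and the female-biased sulfotransferase Sult2a2 read 8.53 there and 3.63 to 3.96 in the others. Male-biased genes went the other way: Cyp4a12a, a fatty acid hydroxylase, read 6.02 in water mouse 5 against 11.48 to 12.16 in water mice 1 to 4, and the mean of 20 male-biased genes was 8.16 against 10.14 to 10.97. Its mean over 17 glucocorticoid and feeding response genes, at 10.12, was also above the 8.57 to 9.01 of the other controls. The Y-linked gene Eif2s3y was present in all 10 arrays, at 9.46 to 9.72 in treated mice and 9.30 to 10.01 in water mice, and Xist, which marks an inactive X chromosome, was low in all 10, at 4.07 to 4.46 in treated mice and 4.11 to 4.64 in water mice. Values without water mouse 5 are given below beside many of the results it touches.

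**Figure D1:**
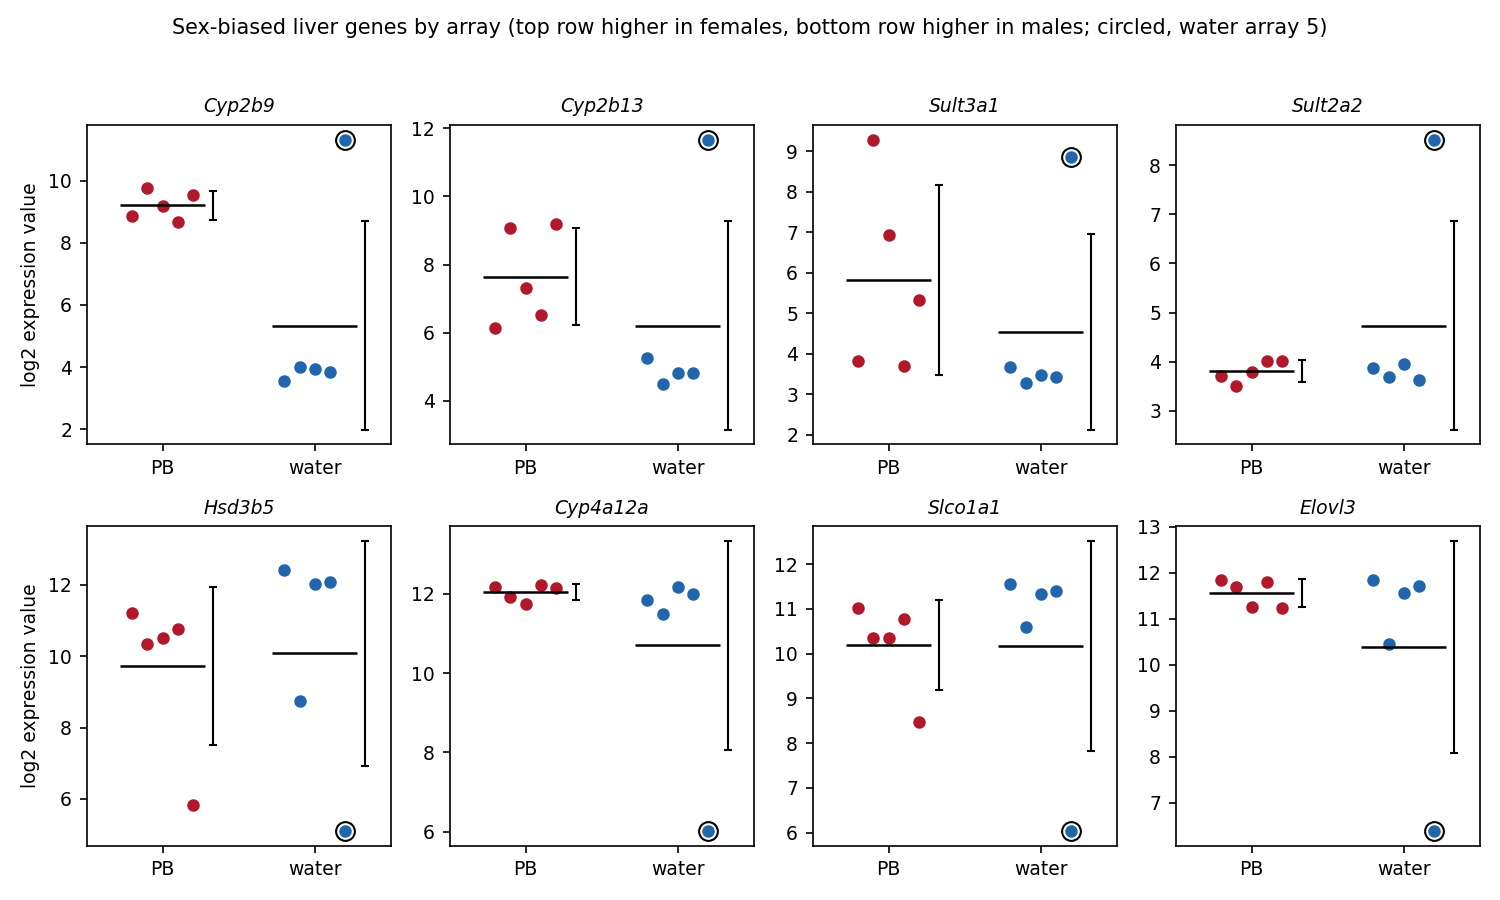
Log2 expression value (vertical axes) of 4 genes that are higher in female liver (top row) and 4 that are higher in male liver (bottom row), 1 point per array, with 5 livers after 56 days of phenobarbital (PB, red) left of 5 water controls (blue). Lines are group means, bars are SD, and water mouse 5 is circled: it reads 11.33 for Cyp2b9 and 6.02 for Cyp4a12a, far from the other controls.

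After 56 days 103 genes differed between phenobarbital and water, 0.566% of those tested. Of these, 78 rose, 0.429% of genes tested, and 25 fell, 0.137%. In 68 of the 78 rises all 5 treated livers lay above all 5 controls, and in 15 of the 25 falls all 5 lay below. Over all genes tested, 289 (1.59%) had all treated livers above and 255 (1.4%) had all of them below. The 2 directions differed in size as well as number: the median rise was 0.86 on the log2 scale and the median fall was -0.65. The smallest rise was 0.34 and the smallest fall -0.33. Stability differed too, with 47 rises and 2 falls (Bhmt and Agmat) passing in the model of all groups whichever of the 10 arrays was left out. Leaving out water mouse 5 alone gave 88 calls, of which 78 were among the 103, and removed the call of 10 rises and 15 falls. With 1 array left out at a time the rises numbered 56 to 75 and the falls 10 to 18. The falls moved by more than 1.5 times without treated mouse 1 (10), 2 (16), 3 (15) or 5 (11) and without water mouse 1 (15), 3 (14) or 5 (13). These calls come from a model whose spread is estimated over all 19 groups of the series. In a model of the 10 compared arrays alone, 68 of the 78 rises and 10 of the 25 falls were also called, and its adjusted p is given below, as that of the 10 arrays alone, for each described gene whose call it changes.

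**Figure D2:**
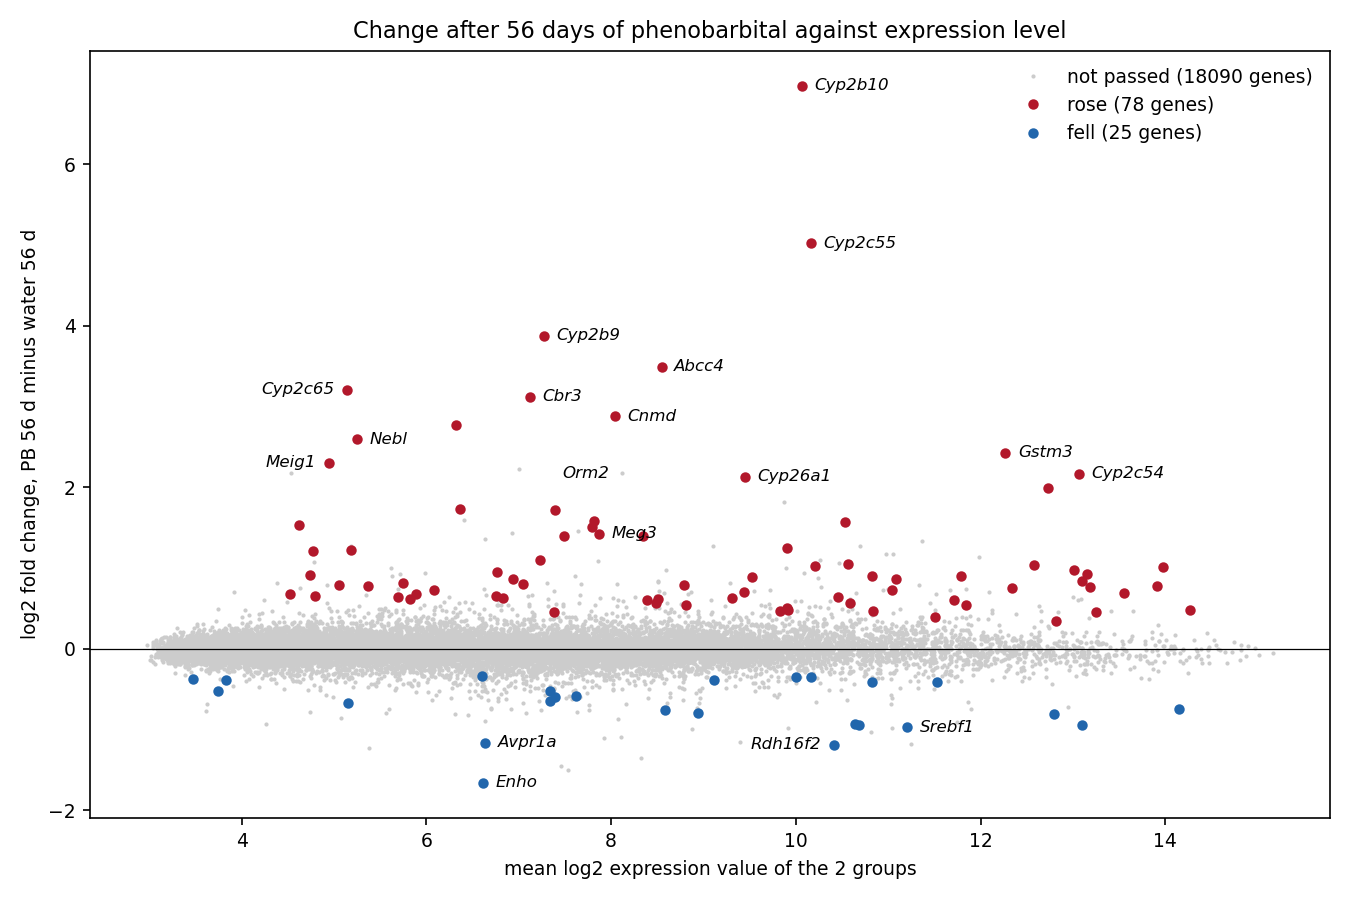
Change after 56 days of phenobarbital (log2, vertical axis) against the mean log2 expression value of both groups (horizontal axis) for 18193 genes. Red points are the 78 genes that rose, blue points the 25 that fell and grey points the rest: Cyp2b10 at 6.98 and Cyp2c55 at 5.02 lie far above the others, and Enho at -1.66 is the lowest blue point.

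The strongest response came from the P450 genes of the Cyp2b and Cyp2c families. Among 15 measured Cyp2a, Cyp2b and Cyp2c genes, 8 rose, against 0.429% of all genes tested, and none fell. Their median change was 1.01, against -0.005 over all genes tested. Without water mouse 5, 9 of the 15 rose. Cyp2b10, the enzyme used everywhere as the marker of CAR activity in mice, read 13.33, 13.57, 13.77, 13.49 and 13.61 in treated livers, against 6.05, 7.12, 6.12, 5.89 and 7.72 in water livers. The treated livers lay close together, whereas water mice 2 and 5 stood above the other controls. The change was 6.98 ± 0.467 (SE), or 126-fold (adjusted p = 1.86e-20), and its 3 probe sets rose by 6.98, 7.79 and 7.98. Cyp2c55, which oxidises arachidonic acid, read 12.63, 12.32, 13.00, 12.74 and 12.68 in treated livers, against 7.40, 8.24, 7.55, 7.83 and 7.24 in water livers. The groups were thus widely apart, and the change was 5.02 ± 0.372 (adjusted p = 2.08e-18).

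Cyp2c65, a close relative of Cyp2c55, was the least even of the large P450 rises. It read 7.95, 7.19, 7.40, 5.97 and 5.20 in treated livers, against 3.48, 3.54, 3.45, 3.62 and 3.60 in water livers, where it was near the bottom of the scale. All treated livers lay above all controls, with treated mice 4 and 5 closest to them, and the change was 3.21 ± 0.299 (adjusted p = 2.14e-13). Cyp2c54 rose by 2.17 ± 0.283, Cyp2c37 by 1.99 ± 0.318, Cyp2c50 by 1.01 ± 0.165 and Cyp2c29 by 0.69 ± 0.109, each with all treated livers above the controls. These 4 were high before treatment: Cyp2c50 averaged 14.47 in treated livers and 13.47 in water livers, so that little of the scale was left above it. Cyp2c37 in water mouse 5 read 13.18, close to the 13.60 to 13.80 of treated livers, while the other controls read 10.32 to 11.91. Members of the families share much of their sequence, so that probe sets may partly read each other's transcripts and single members are uncertain.

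Cyp2b9 and Cyp2b13 depended on water mouse 5. Cyp2b9 read 8.85, 9.78, 9.18, 8.67 and 9.56 in treated livers, against 3.55, 4.00, 3.94, 3.84 and 11.33 in water livers, so that the highest of all 10 values was a control. With all arrays the change was 3.88 ± 0.635 (adjusted p = 2.78e-05), and without water mouse 5 it was 5.38. With the 10 arrays alone it did not pass (adjusted p = 0.196). Cyp2b13 read 6.14 to 9.18 in treated livers, with a median of 7.31, and 4.48 to 11.67 in water livers, with a median of 4.83. Its change of 1.43 did not pass (adjusted p = 0.425), but without water mouse 5 it was 2.80 (adjusted p = 1.56e-08). Other members stayed near 0, such as Cyp2a12 at 0.21.

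The windows just upstream of the start sites of 6 of the genes that rose are printed here because they carry the letters that CAR and its neighbours could read closest to the gene. The 6 are not the 6 largest rises: Cyp2c29 rose by 0.69, below the median rise of 0.86. They are the 250 bases before the start given by RefSeq for mouse build GRCm38.p6, written 5′ to 3′ on the strand of the gene, with motif matches in capitals. The windows are chr7:25897408-25897657 (plus strand) for Cyp2b10, chr19:39006769-39007018 (plus) for Cyp2c55, chr19:39060756-39061005 (plus) for Cyp2c65 and chr19:39286835-39287084 (plus) for Cyp2c29. For Cbr3 the window is chr16:93682969-93683218 (plus), and for Abcc4 it is chr14:118706220-118706469 (minus), the first of 2 listed starts.
Cyp2b10: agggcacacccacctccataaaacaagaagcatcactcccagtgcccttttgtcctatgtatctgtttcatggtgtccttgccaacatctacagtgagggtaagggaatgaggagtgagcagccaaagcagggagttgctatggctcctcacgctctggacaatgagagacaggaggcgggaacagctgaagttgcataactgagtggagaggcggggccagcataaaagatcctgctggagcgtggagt
Cyp2c55: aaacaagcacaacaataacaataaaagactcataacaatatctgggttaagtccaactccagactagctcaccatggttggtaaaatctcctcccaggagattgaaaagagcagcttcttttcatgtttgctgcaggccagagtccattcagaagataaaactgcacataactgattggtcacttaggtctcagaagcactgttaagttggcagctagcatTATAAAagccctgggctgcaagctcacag
Cyp2c65: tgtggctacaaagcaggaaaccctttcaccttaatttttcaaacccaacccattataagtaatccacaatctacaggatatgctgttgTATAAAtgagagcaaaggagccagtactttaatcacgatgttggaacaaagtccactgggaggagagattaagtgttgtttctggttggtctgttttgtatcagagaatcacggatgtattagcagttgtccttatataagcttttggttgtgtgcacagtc
Cyp2c29: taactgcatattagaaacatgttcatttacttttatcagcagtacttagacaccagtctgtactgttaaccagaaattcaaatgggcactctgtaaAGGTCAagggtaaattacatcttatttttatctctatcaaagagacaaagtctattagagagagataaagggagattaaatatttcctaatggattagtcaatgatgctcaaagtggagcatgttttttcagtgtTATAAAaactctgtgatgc
Cbr3: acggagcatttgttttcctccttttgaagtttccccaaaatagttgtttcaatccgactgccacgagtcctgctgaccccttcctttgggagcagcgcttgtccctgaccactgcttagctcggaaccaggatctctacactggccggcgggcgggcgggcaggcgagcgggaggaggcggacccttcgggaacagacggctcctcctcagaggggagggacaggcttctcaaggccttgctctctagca
Abcc4: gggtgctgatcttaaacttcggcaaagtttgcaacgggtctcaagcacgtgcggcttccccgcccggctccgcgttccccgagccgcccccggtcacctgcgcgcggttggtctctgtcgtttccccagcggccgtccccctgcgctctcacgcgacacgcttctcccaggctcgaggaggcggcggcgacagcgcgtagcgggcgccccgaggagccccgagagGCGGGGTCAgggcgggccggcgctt

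Motifs searched on both strands were AGGTCA and its variant AGTTCA, the hexamers that nuclear receptors bind, TGACNNNGC, the core of the antioxidant response element, and TGAGTCA, the site of AP-1 factors. TATAAA, the TATA box, was searched on the strand of the gene only. On the opposite strand AGGTCA and TGAGTCA read TGACCT and TGACTCA, so either can overlap a TGACNNNGC match, and the counts of these motifs are not separate. The Cyp2b10 window held none of them, and its well known phenobarbital-responsive enhancer lies further upstream than this window reaches. Cyp2c29 held AGGTCA 154 to 149 bases before the start and TATAAA 19 to 14 bases before it. Cyp2c55 held TATAAA 29 to 24 bases before the start, and Cyp2c65 held it 162 to 157 bases before. In the Abcc4 window TGACNNNGC lay on the opposite strand, 25 to 17 bases before the start, and the Cbr3 window held none of the motifs. Windows were found for 69 of the 78 genes that rose and 20 of the 25 that fell. A gene with several listed starts was counted once, as a match where any of its windows matched. AGGTCA was in 11 of the 69 (15.9%) and 3 of the 20 (15.0%), against 15.8% of all 27025 genes with a window, tested or not. TGACNNNGC was in 9 of the 69 (13.0%) and 2 of the 20 (10.0%), against 11.5% of all. TGAGTCA was in 8 of the 69 (11.6%) and 1 of the 20 (5.0%), against 5.16% of all. TATAAA was in 11 of the 69 (15.9%) and 2 of the 20 (10.0%), against 8.94% of all. AGTTCA was in 7 of the 69 (10.1%) and 3 of the 20 (15.0%), against 13.4% of all. A match describes letters in the window and is not a measured binding site.

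**Figure D3:**
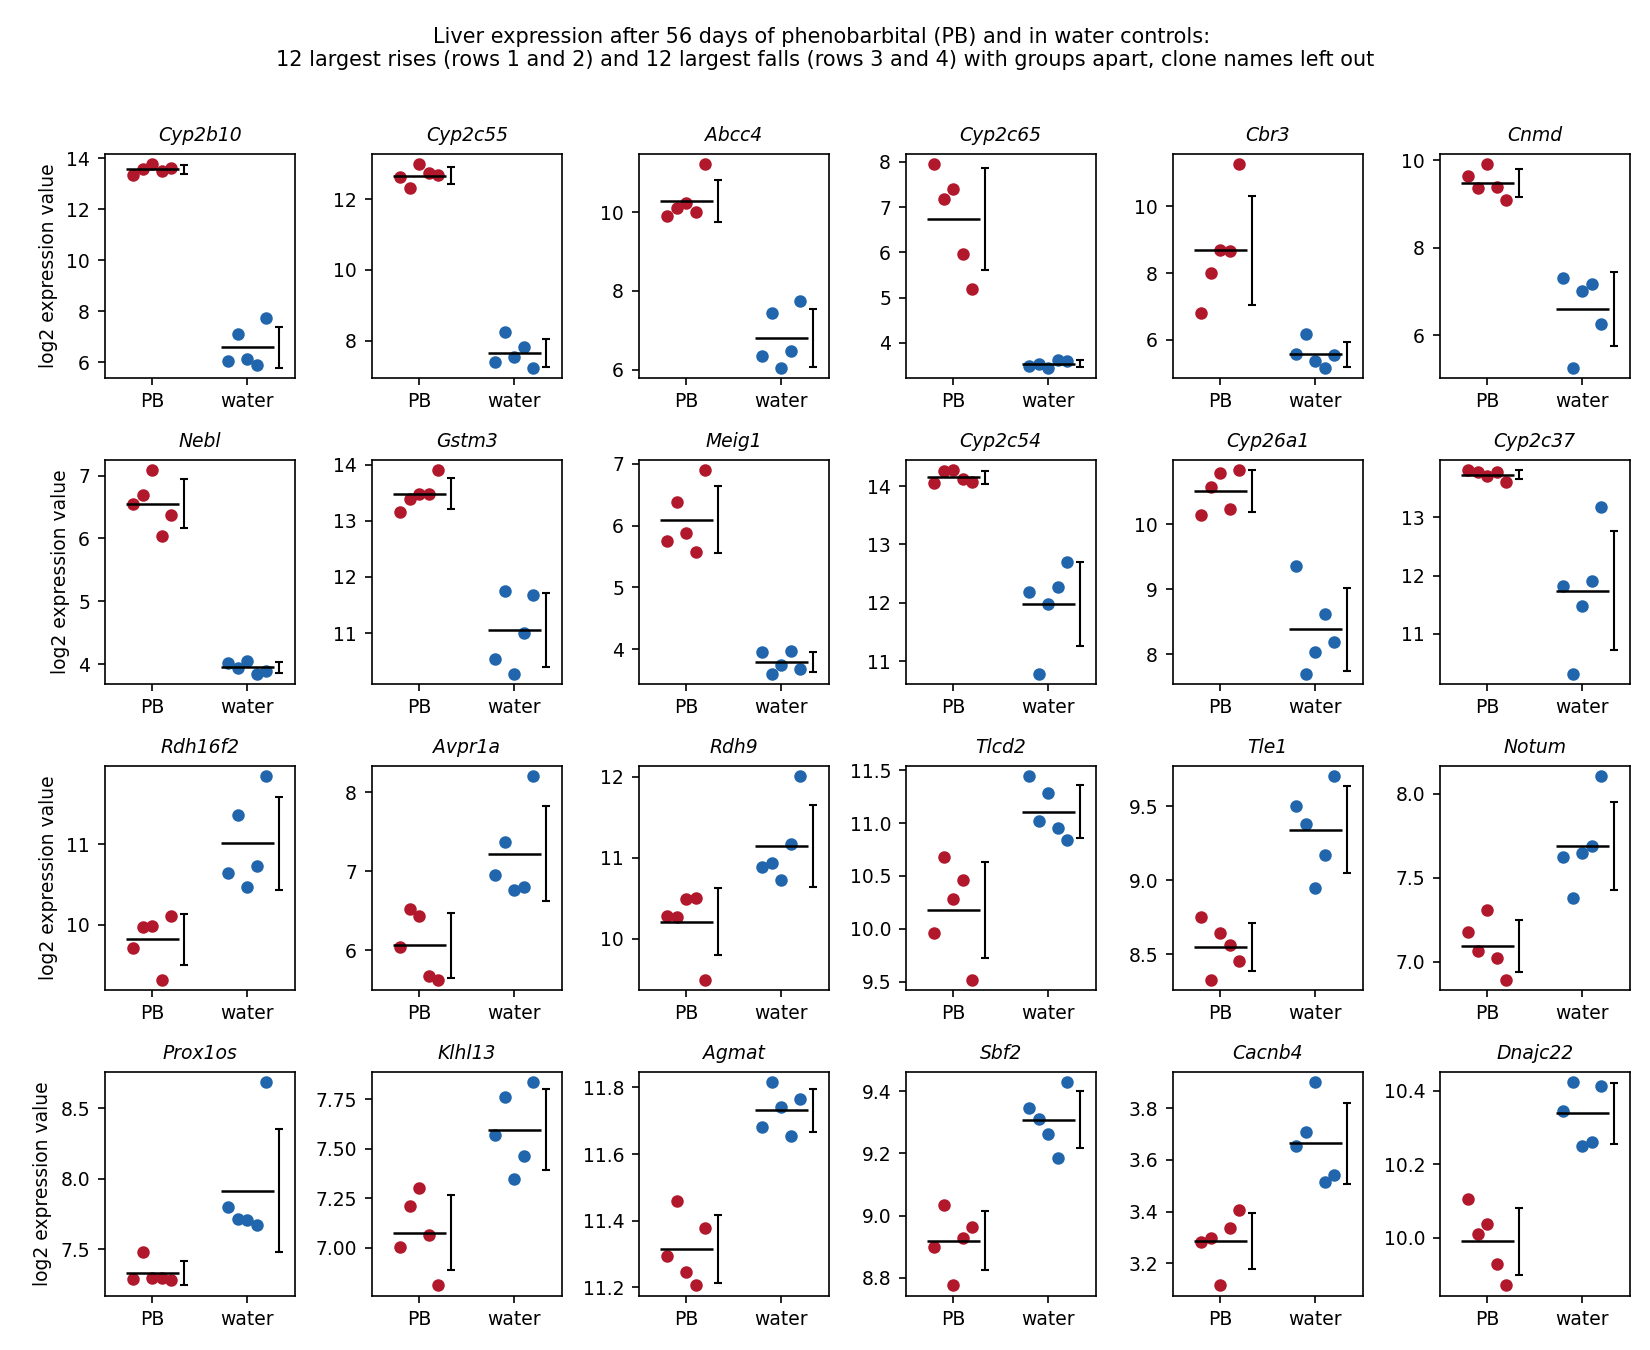
Log2 expression value (vertical axes, each with its own range) of the 12 largest rises (rows 1 and 2) and 12 largest falls (rows 3 and 4) among genes whose groups did not overlap, clone names left out. Each point is 1 liver, with phenobarbital (PB, red) left of water (blue), lines are means and bars SD (n = 5 each). Treated livers are tight for Cyp2b10 (13.33 to 13.77) and spread for Cbr3 (6.80 to 11.27).

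Few P450 genes of the other listed families passed. With 0.566% of all genes tested called, lists this short would often hold none. None of 5 measured Cyp3a genes passed, their median change was 0.10, and Cyp3a11, the main target of PXR in mouse liver, averaged 14.79 in treated livers and 14.70 in water livers, near the top of the scale. In the separate 28-day exposure described below, Cyp3a11 rose by 0.21 (adjusted p = 0.0221). None of 10 Cyp4 genes passed. Among 7 targets of the aryl hydrocarbon receptor, Cyp1a2 rose by 0.93 ± 0.183, with 13.55 to 13.69 in treated livers against 12.02 to 12.96 in water livers and no overlap, while Cyp1a1 changed by 0.33 and did not pass. None of 12 electron donors and microsomal partners of P450 passed. Of these, Ephx1, the microsomal epoxide hydrolase and a classic phenobarbital-inducible gene, changed by 0.64 (adjusted p = 0.0835, but 0.00227 with the 10 arrays alone, where it passed) with 13.12 to 13.58 in treated livers, all above the 12.51 to 12.80 of water livers. Cyb5a, which passes electrons to P450, changed by 0.18 with all treated livers above all controls. Of 11 heme genes, Blvrb, a biliverdin reductase, rose by 0.61, a call lost when any of 9 arrays was left out (0.53 to 0.65). Alas1, the first enzyme of heme synthesis, read 11.46 to 12.66 in treated livers and 9.49 to 12.53 in water livers. Its change of 0.74 did not pass, and was 0.25 without water mouse 2, which held the low value.

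CAR and PXR themselves did not pass. Nr1i3 read 9.25 to 9.72 in treated livers and 8.64 to 10.76 in water livers, and Nr1i2 read 6.86 to 7.21 in treated livers and 6.63 to 7.96 in water livers. Water mouse 5 was the highest array for both. None of 21 receptors and partners passed, and with 0.566% of all genes tested called, a list this short would often hold none.

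Glutathione transferases also responded, with 5 of 20 measured members rising, against 0.429% of all genes tested, and none falling. Their median change was 0.21. Gstm3 read 13.15, 13.39, 13.48, 13.48 and 13.91 in treated livers, against 10.54, 11.76, 10.28, 11 and 11.69 in water livers. Treated mouse 5 was the highest and water mice 2 and 5 were the highest controls, still well below the treated group. The change was 2.43 ± 0.326 (adjusted p = 1.18e-07). Its neighbours of the mu class also rose, Gstm2 by 1.25 ± 0.205, Gstm4 by 1.05 ± 0.158 and Gstm1 by 0.78 ± 0.111, each with the groups apart, and all 4 probe sets of Gstm1 rose, by 0.78 to 1.08. As in the P450 families, probe sets of these relatives may partly read each other's transcripts, so their rises may not be separate. Gstt3, of the theta class, read 10.97 to 11.77 in treated livers, against 8.99 to 9.81 in water mice 1 to 4 and 11.18 in water mouse 5, and rose by 1.57 ± 0.320. Gsta2 (1.13, adjusted p = 0.257), Gsta4 (0.72) and Gstt1 (0.45) had all treated livers above all controls without passing. With the 10 arrays alone these 3 passed (adjusted p = 0.0201, 0.0173 and 0.0111).

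Coupling to glucuronic acid drew on 3 rises among 12 measured genes, against 0.429% of all genes tested. Ugt2b34 read 13.63, 13.48, 13.43, 13.56 and 13.71 in treated livers, against 12.91, 12.71, 12.87, 12.94 and 12.58 in water livers. The groups were apart, and the change was small but even, 0.76 ± 0.0837 (adjusted p = 1.55e-10). Ugt2b35 rose by 0.84 ± 0.147 and Ugdh, which makes UDP-glucuronic acid for these enzymes, by 0.75 ± 0.135. The change was above 0 in all 12 members, against 8764 of all 18193 genes tested, with a median of 0.28. The mean level of the list was 11.94 to 12.2 in treated livers, 11.53 to 11.96 in water mice 1 to 4 and 11.06 in water mouse 5. Ugt2b1, at 0.62, did not pass, and without water mouse 5 it changed by 0.41. Among 12 sulfotransferase genes only Sult1c2 rose (2 genes without water mouse 5), by 1.11 ± 0.257, with 7.41 to 8.20 in treated livers and 6.43 to 7.20 in water livers, a call lost when treated mouse 3, treated mouse 5 or water mouse 1 was left out (1.00 to 1.23 over all omissions). The sulfotransferase Sult3a1 read 3.82, 9.29, 6.92, 3.71 and 5.33 in treated livers, against 3.67, 3.27, 3.48, 3.43 and 8.87 in water livers. In each group some mice read near the bottom of the scale and others far above it, and its change of 1.27 did not pass (2.35 without water mouse 5, adjusted p = 0.123).

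Of 11 carboxylesterases, which cleave ester drugs, 1 rose, against 0.429% of all genes tested. That gene, Ces2a, read 13.37, 13.52, 13.66, 13.47 and 13.48 in treated livers, against 12.45, 12.29, 12.50, 12.85 and 12.55 in water livers. With no overlap, the change was 0.97 ± 0.121 (adjusted p = 1.4e-08), and 10 of the 11 members had a change above 0, against 8764 of all 18193 genes tested. Ces1d read 13.24 to 13.52 in treated livers, all above the 12.57 to 13.12 of water livers, and its change of 0.60 did not pass, except with the 10 arrays alone (adjusted p = 0.0113).

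Carbonyl and aldehyde oxidoreductases, which reduce or oxidise reactive carbonyl groups, had 4 rises among 32 measured genes, and 2 without water mouse 5. Over all genes tested 0.429% rose. Cbr3, a carbonyl reductase, read 6.80, 8.0, 8.70, 8.65 and 11.27 in treated livers, against 5.57, 6.18, 5.36, 5.16 and 5.54 in water livers. All treated livers were above all controls, and treated mouse 5 was far above the other 4. The change was 3.12 ± 0.309 (adjusted p = 1.78e-12), and 2.47 without treated mouse 5. Cbr1, next to Cbr3 on the chromosome, read 12.09 in treated mouse 5, 10.86 to 11.21 in the other treated mice and 9.88 to 11.18 in water livers, and rose by 0.90 ± 0.200. Its call was lost without treated mouse 5 (0.69), water mouse 1 or water mouse 3, and with the 10 arrays alone (adjusted p = 0.157). Aldh1a1 and Aldh1a7, retinaldehyde dehydrogenase relatives, rose by 0.48 and 0.45 with the groups apart. Without water mouse 5 they changed by 0.45 and 0.36 and no longer passed; Aldh1a1 also lost its call without water mouse 2 and Aldh1a7 without treated mouse 5. Aldh1b1, a mitochondrial aldehyde dehydrogenase, read 6.98 to 8.64 in treated livers and 7.91 to 10.18 in water livers, and its change of -1.35 did not pass. Aox1, an aldehyde oxidase that is not among the 32 genes of the list, rose by 0.90 ± 0.177. It read 12.06 to 12.40 in treated livers against 11.06 to 11.57 in water livers.

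The genes of the glutathione and thioredoxin system, many of them targets of the stress factor NRF2, moved less. Of 17 measured members 1 rose, against 0.429% of all genes tested, and none fell. Their median change was 0.22, and 6 had all treated livers above all controls, against 1.59% of all genes tested. Srxn1, which repairs oxidised peroxiredoxins, read 8.68, 9.17, 9.22, 9.06 and 9.79 in treated livers, against 8.40, 8.66, 8.37, 8.05 and 8.50 in water livers. The lowest treated liver lay just above the highest control, and the change was 0.79 ± 0.159 (adjusted p = 0.00173, and 0.0538 with the 10 arrays alone). The other 5 with the groups apart were Gsr (0.50), Gclc (0.46), Gclm (0.31), Txnrd1 (0.30) and Txn1 (0.21), none of which passed. Gclm passed with the 10 arrays alone (adjusted p = 0.0378). Nqo1, a quinone reductase, read 7.36 to 8.84 in treated livers and 6.86 to 8.26 in water livers. Its change of 0.57 did not pass, and was 0.34 without treated mouse 5, its highest array.

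Efflux was dominated by Abcc4, an exporter on the blood side of the hepatocyte. It read 9.90, 10.11, 10.23, 10.00 and 11.23 in treated livers, against 6.33, 7.44, 6.05, 6.46 and 7.74 in water livers. Treated mouse 5 was again the highest and water mice 2 and 5 the highest controls, with a wide gap between the groups. The change was 3.49 ± 0.344, or 11.2-fold (adjusted p = 1.78e-12). Of 16 ABC transporters 3 rose, against 0.429% of all genes tested, and none fell. Abcc3, another exporter on the blood side, rose by 0.86 ± 0.195 with 11.21 to 11.73 in treated livers, 10.40 to 10.65 in water mice 1 to 4 and 11.20 in water mouse 5; its call was lost without treated mouse 3, water mouse 1 or water mouse 3 (lowest change 0.79). Abcc2, which exports conjugates into bile, rose by 0.54 ± 0.137 with the groups apart, and its call was lost when any of 9 arrays was left out (0.49 to 0.60). Among 14 uptake transporters Slc22a5, the carnitine transporter, rose by 0.70 ± 0.183, a call lost when any of 8 arrays was left out (0.62 to 0.80).

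Retinoid genes moved in both directions, with 3 rises and 2 falls among 20 measured members, but without water mouse 5 only 1 rise and 0 falls were left. Over all genes tested 0.429% rose and 0.137% fell. Cyp26a1, which degrades retinoic acid and is itself induced by it, read 10.14, 10.57, 10.79, 10.23 and 10.84 in treated livers, against 9.36, 7.70, 8.03, 8.62 and 8.19 in water livers. Water mouse 1 was the highest control but below every treated liver, and the change was 2.13 ± 0.325 (adjusted p = 4.74e-06). The other rises were Aldh1a1 and Aldh1a7, given above, which belong to this list too. Rdh16f2, of the retinol dehydrogenase family, read 9.71, 9.97, 9.99, 9.32 and 10.11 in treated livers, against 10.64, 11.37, 10.47, 10.73 and 11.85 in water livers. Every treated liver was below every control, with a change of -1.19 ± 0.255 (adjusted p = 0.00439), but without water mouse 5 it was -0.98 (adjusted p = 0.0683). Its neighbour Rdh9 fell by 0.94 ± 0.246, with 9.5 to 10.51 in treated livers and 10.73 to 12.01 in water livers, a call lost when any of 8 arrays was left out (-1.04 to -0.72, the smallest without water mouse 5) and with the 10 arrays alone (adjusted p = 0.103). Rdh16, the third of these relatives, overlapped between groups (8.74 to 9.70 in treated livers and 9.07 to 10.21 in water livers).

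Meg3, a long noncoding RNA expressed from the maternal copy of the imprinted Dlk1-Dio3 region, read 9.55, 8.37, 8.52, 8.33 and 8.17 in treated livers, against 7.19, 7.11, 6.94, 7.42 and 7.14 in water livers. No group overlapped the other and treated mouse 1 stood above the rest. The change was 1.43 ± 0.181 (adjusted p = 2.18e-08). Of its 11 probe sets 5 rose, by 1.03 to 1.85, and the other 6 lay between -0.01 and 0.33. Of the other 3 measured genes of the region, Mirg had all treated livers above all controls with a change of 0.19, and Rian (0.23) and Dlk1 (-0.12) overlapped. Of 4 Rian probe sets 1 rose, by 0.52. Among 13 other imprinted genes 1 rose, against 0.429% of all genes tested. That gene was Peg3, a zinc finger gene expressed from the paternal copy, which rose by 1.40 ± 0.326. Peg3 read 7.76 to 8.76 in treated livers, 5.80 to 6.86 in water mice 1 to 4 and 8.48 in water mouse 5, so the groups overlapped through that 1 control. Its call was lost without treated mouse 1, water mouse 3 or water mouse 4 (lowest change 1.15) and with the 10 arrays alone (adjusted p = 0.161), and it changed by 1.82 without water mouse 5.

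Several of the largest rises lie outside drug metabolism. Cnmd, chondromodulin, a cartilage glycoprotein that restrains blood vessel growth, read 9.64, 9.37, 9.91, 9.38 and 9.09 in treated livers, against 7.30, 5.26, 7.01, 7.16 and 6.26 in water livers. The controls spread widely yet stayed below every treated liver, and the change was 2.88 ± 0.392 (adjusted p = 1.84e-07). The uncharacterised 1700067K01Rik rose by 2.78 ± 0.199, with 7.29 to 8.33 in treated livers and 4.61 to 5.22 in water livers. Nebl, which encodes the actin-binding protein nebulette of heart muscle, read 6.55, 6.69, 7.09, 6.04 and 6.38 in treated livers, against 4.02, 3.95, 4.06, 3.85 and 3.90 in water livers. The controls lay in a narrow band near the bottom of the scale, and the change was 2.59 ± 0.255 (adjusted p = 1.78e-12), seen in 1 of 3 probe sets. Meig1, named for its expression in meiosis, read 5.75, 6.38, 5.88, 5.57 and 6.90 in treated livers, against 3.96, 3.61, 3.75, 3.98 and 3.68 in water livers, again with a narrow control band, and rose by 2.30 ± 0.299.

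Gadd45b, a stress-inducible gene whose product is known in mouse liver as a partner of CAR, read 8.56, 7.89, 8.25, 8.87 and 9.44 in treated livers, against 6.97, 7.15, 6.43, 7.02 and 7.53 in water livers. The groups were apart, and the change was 1.58 ± 0.293 (adjusted p = 0.000374). Gadd45b was the only riser among 24 measured Gadd45, p53 and apoptosis genes, against 0.429% of all genes tested. Of its 3 probe sets 1 rose, and the others changed by 0.98 and 0.21 without passing. Its relative Gadd45a changed by 1.08 and did not pass, except without water mouse 3 (1.36). Prss8, a membrane serine protease, rose by 1.51 ± 0.249, Ndrg1, a hypoxia-inducible gene, by 1.40 ± 0.284, Cpe, a carboxypeptidase of hormone processing, by 1.23 ± 0.151, and Pnliprp1, a relative of pancreatic lipase, by 1.21 ± 0.144. Each of these had the groups apart, and Ndrg1 rose in 3 of its 5 probe sets and Cpe in 1 of 2. Ackr3, a chemokine receptor, read 4.01, 4.71, 5.21, 5.68 and 7.32 in treated livers, against 3.68, 4.11, 3.70, 3.94 and 3.82 in water livers. Treated mouse 1 lay within the control range and treated mouse 5 far above it, and the rise of 1.54 was lost without treated mouse 5 (1.05) and with the 10 arrays alone (adjusted p = 0.173).

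The genes that fell were fewer and their changes smaller. Avpr1a, the vasopressin receptor of hepatocytes, read 6.04, 6.53, 6.43, 5.67 and 5.63 in treated livers, against 6.95, 7.37, 6.76, 6.80 and 8.21 in water livers. No values overlapped, both probe sets fell, and the change was -1.16 ± 0.243 (adjusted p = 0.00319), or -0.91 without water mouse 5 (adjusted p = 0.0699). It did not pass with the 10 arrays alone (adjusted p = 0.0688). Tlcd2, a membrane protein of the TLC domain family, fell by 0.93 ± 0.203 with 9.52 to 10.68 in treated livers and 10.84 to 11.45 in water livers, and the call was lost without treated mouse 5 (-0.76). Tle1, a corepressor of the Groucho family, fell by 0.79 ± 0.194 with the groups apart and in both of its probe sets, but its call was lost when any of 6 arrays was left out (-0.89 to -0.70, the smallest without water mouse 5). Agmat, agmatinase, read 11.29, 11.46, 11.24, 11.21 and 11.38 in treated livers, against 11.68, 11.82, 11.74, 11.65 and 11.76 in water livers. Both groups were tight and apart, and the small fall of 0.42 ± 0.0924 (adjusted p = 0.00744) passed whichever array was left out.

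The largest fall, in Enho, which encodes the secreted peptide adropin, had groups that overlapped. It read 5.53, 5.93, 6.31, 5.60 and 5.53 in treated livers, against 7.79, 8.57, 5.84, 6.84 and 8.17 in water livers. Water mouse 3 lay among the treated livers, and the change of -1.66 ± 0.346 (adjusted p = 0.003) lost its call without water mouse 2 (-1.38) and with the 10 arrays alone (adjusted p = 0.0979). Of its 4 probe sets 2 fell. Srebf1, a master regulator of fatty acid synthesis, read 10.75, 11.34, 10.55, 10.39 and 10.58 in treated livers, against 12.07, 11.30, 11.85, 11.50 and 11.75 in water livers. Only treated mouse 2 and water mouse 2 overlapped, and the change was -0.97 ± 0.245 (adjusted p = 0.0344), a call lost when any of 7 arrays was left out (-1.13 to -0.88), water mouse 5 among them (-0.96, adjusted p = 0.0807). Srebf1 was the only one of 23 sterol and fatty acid synthesis genes to pass, against 0.566% of all genes tested. None passed without water mouse 5. Errfi1, a feedback inhibitor of the epidermal growth factor receptor, fell by 0.95 ± 0.217, with 11.65 to 13.31 in treated livers and 12.97 to 13.97 in water livers; its call was lost without treated mouse 2, treated mouse 5 or water mouse 5 (smallest change -0.71, and -0.85 without water mouse 5), and with the 10 arrays alone (adjusted p = 0.162). None of the other 20 measured EGFR ligands, receptors and feedback genes passed with all arrays.

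Liver genes are zoned along the lobule, and induction by phenobarbital is known to be strongest near the central vein. Of 25 measured perivenous genes that depend on Wnt signals, 2 rose, Cyp1a2 and Gstm1, and 2 fell (1 without water mouse 5). Over all genes tested 0.429% rose and 0.137% fell. Oat, ornithine aminotransferase, read 12.39, 12.92, 12.32, 12.48 and 11.87 in treated livers, against 13.34, 12.86, 13.47, 13.26 and 13.09 in water livers. Treated mouse 2 overlapped with water mouse 2, and the change of -0.81 ± 0.204 lost its call when any of 7 arrays was left out (-0.94 to -0.68). Notum, an enzyme that inactivates Wnt proteins and is itself a Wnt target, fell by 0.59 ± 0.154 with the groups apart, a call lost when any of 8 arrays was left out (-0.67 to -0.49, the smallest without water mouse 5) and with the 10 arrays alone (adjusted p = 0.051). Other Wnt targets did not pass: Lgr5 changed by -0.90 (adjusted p = 0.106; it passed only without water mouse 2, at -1.11), Lhpp by -0.60 with all treated livers below all controls, Glul by -0.29 and Axin2 by -0.19. The median of the list was -0.12. Of 28 periportal, urea cycle and amino acid genes 21 had a change below 0, against 9429 of all 18193 genes tested, and the median was -0.18. The list mean was 11.84 to 11.95 in treated livers, 11.93 to 12.14 in water mice 1 to 4 and 12.32 in water mouse 5. Only 1 of the 28 fell. That gene was Bhmt, which remethylates homocysteine, with 13.61, 14.44, 13.31, 13.65 and 13.86 in treated livers, against 14.47, 14.54, 14.59, 14.26 and 14.76 in water livers. Treated mouse 2 alone lay within the control range, and the change was -0.75 ± 0.128 (adjusted p = 7.48e-05). It passed in the model of all groups whichever array was left out, but not with the 10 arrays alone (adjusted p = 0.0548). Agxt, an alanine-glyoxylate aminotransferase, changed by -0.66 with all treated livers below all controls and did not pass, except with the 10 arrays alone (adjusted p = 0.0453).

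**Figure D4:**
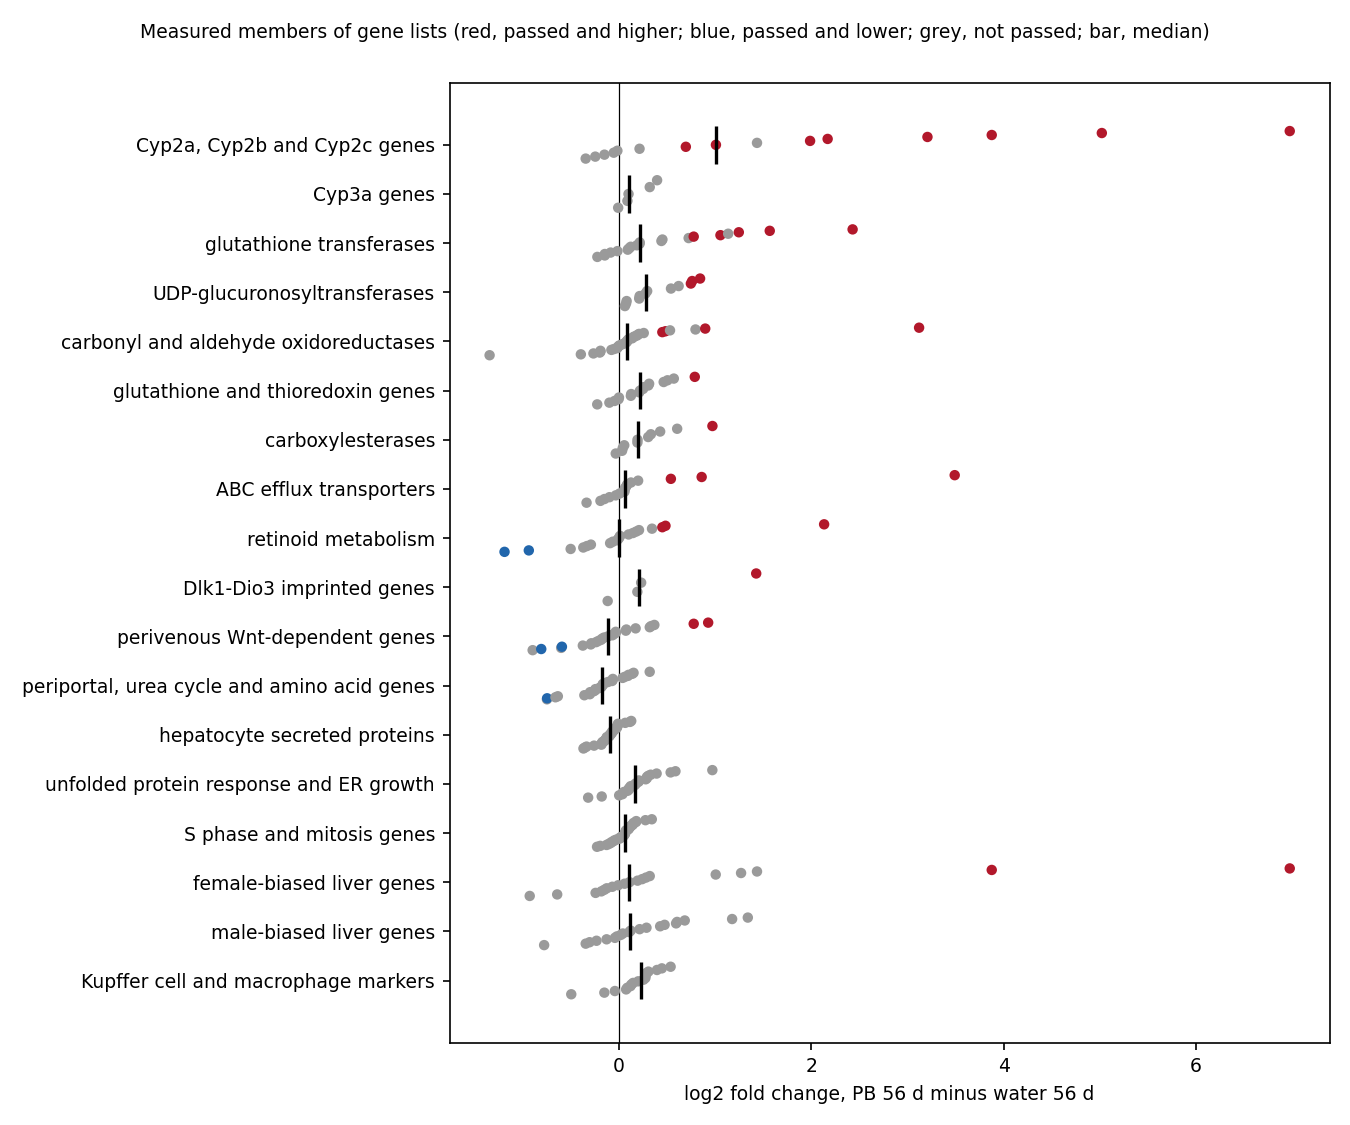
Change after 56 days of phenobarbital (log2, horizontal axis) of each measured member of 18 gene lists, 1 point per gene, with black bars for list medians. Red points rose, blue points fell and grey points did not pass: the median is 1.01 for the Cyp2a, Cyp2b and Cyp2c genes and lies between -0.18 and 0.28 for the other lists shown.

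Proliferation genes did not pass at 56 days. None of 31 measured genes of S phase and mitosis and none of 24 cyclins and G1 genes were called. With 0.566% of all genes tested called, lists this short would often hold none. Mki67, a marker of cycling cells, read 4.90 to 5.45 in treated livers and 5.03 to 5.39 in water livers. Ccnd1, the G1 cyclin D1, read 7.97 to 9.26 in treated livers and 8.64 to 10.48 in water livers. Its change of -0.67 did not pass, and was -0.37 without water mouse 2. None of 25 genes of the unfolded protein response and endoplasmic reticulum growth passed, although 23 had a change above 0 (median 0.17), against 8764 of all 18193 genes tested. Their mean level was 10.15 to 10.43 in treated livers, 10.08 to 10.26 in water mice 1 to 4 and 9.96 in water mouse 5. Ern1, a sensor of this response, had all treated livers above all controls (0.59) and passed with the 10 arrays alone (adjusted p = 0.0467). Its probe set used here was the brightest of 5, and the others changed by -0.05 to 0.21. Of 30 genes for secreted hepatocyte proteins none passed, and 27 had a change below 0, against 9429 of all 18193 genes tested. All treated livers lay below all controls for 7 of the 30, among them Ahsg (-0.37) and Itih2 (-0.36), against 1.4% of all genes tested. Ahsg passed when water mouse 3 was left out (-0.43). Their median was -0.09, with 13.52 to 13.64 as the mean level of the list in treated livers, 13.63 to 13.76 in water mice 1 to 4 and 13.78 in water mouse 5.

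Thyroid-linked and inflammatory genes gave no calls in the model of all groups, but some passed with the 10 arrays alone. Over all genes tested 0.566% passed, so lists as short as these would often hold no call. None of 12 thyroid hormone carriers and response genes passed. Serpina7, thyroxine-binding globulin, read 8.53 to 9.04 in treated livers, all below the 9.43 to 10.56 of water livers, and its change of -1.15 did not pass (adjusted p = 0.106, but 0.0136 with the 10 arrays alone). Dio1, a deiodinase, changed by 0.74 with all treated livers above all controls, and passed with the 10 arrays alone (adjusted p = 0.0152). None of 24 acute phase genes passed: 11 had a change above 0 and 13 below it, with a median of -0.02. All treated livers lay above all controls for 3 of the 24 and below them for 4, against 1.59% and 1.4% of all genes tested. Orm2, an orosomucoid, read 8.47, 9.41, 9.82, 9.24 and 9.07 in treated livers, against 6.55, 6.67, 7.09, 7.49 and 7.36 in water livers. The groups were apart with a change of 2.17 ± 0.888, and its adjusted p was 0.523 in the model of all groups and 0.000291 with the 10 arrays alone. Orm3 changed by 1.36, also with the groups apart, and passed with the 10 arrays alone (adjusted p = 0.00216). Neutrophil S100a8 read 6.24, 11.43, 10.41, 6.28 and 6.25 in treated livers and 5.11 to 6.63 in water livers, so that treated mice 2 and 3 stood far above all others.

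Markers of other liver cells were checked because a shift in cells would move their genes together. None passed among 18 Kupffer cell and macrophage markers, 20 stellate cell and matrix genes, 16 endothelial, 9 cholangiocyte, 17 lymphocyte and neutrophil and 4 erythroid markers, or 6 MHC class II genes. Over all genes tested 0.566% passed, so lists this short would often hold no call. For Kupffer cells 15 of 18 had a change above 0 (median 0.23), against 8764 of all 18193 genes tested. The mean level of the Kupffer list was 8.07 to 8.39 in treated livers and 7.95 to 8.13 in water livers. For stellate cells the list mean was 7.27 to 8.12 in treated livers and 7.54 to 8.06 in water livers, and for cholangiocytes 5.15 to 5.74 in treated livers and 5.13 to 5.37 in water livers. The part of such shifts in the results above was not tested.

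Some called genes lay near each other on the chromosomes, and how often this holds for other genes was not tested. With tested genes taken in chromosome order, 27 of the 103 called genes had another called gene within 5 places. The largest run was of 6 Cyp2c genes on chromosome 19, Cyp2c55, Cyp2c65, Cyp2c29, Cyp2c37, Cyp2c54 and Cyp2c50, all of which rose. Gstm3, Gstm2, Gstm1 and Gstm4 rose together on chromosome 3, Cyp2b10 and Cyp2b9 on chromosome 7, Cbr1 and Cbr3 on chromosome 16 and Ugt2b34 and Ugt2b35 on chromosome 5. Rdh9 and Rdh16f2 fell together on chromosome 10. Probe sets of such related neighbours may partly read each other's transcripts, so these rises and falls may not be separate. Some runs held unrelated genes: Fam171a1 (0.91), Nmt2 (0.62) and Meig1 rose on chromosome 2, Slc22a5 and P4ha2 (0.73) rose on chromosome 11, and Tle1 and C630043F03Rik (-0.68) fell on chromosome 4. P4ha2 lost its call without treated mouse 3 or water mouse 2 (lowest change 0.64), and C630043F03Rik lost it when any of 6 arrays was left out (-0.77 to -0.60), water mouse 5 among them (-0.65).

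Another group of 5 mice had phenobarbital at the same concentration for 28 days, with 5 water controls of its own. The titles of those treated arrays carry an added "(2)" that the labels do not explain. At 28 days 104 genes rose (0.572% of genes tested) and 72 fell (0.396%). Of the 78 rises at 56 days, 72 had a change above 0 at 28 days and 48 were called there, which is 61.5% of the rises at 56 days and 46.2% of those at 28 days. Of the 25 falls, 18 had a change below 0 at 28 days and 3 were called, which is 12% of the falls at 56 days and 4.17% of those at 28 days. The median change of the 78 genes was 0.86 at 56 days and 0.65 at 28 days, and that of the 25 genes was -0.65 at 56 days and -0.13 at 28 days. These medians favour 56 days because the genes were chosen there.

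The difference between the 2 responses was tested gene by gene, and none passed (0%). An unadjusted p under 0.05 in limma was found for 879 genes (4.83%), near the share of 0.05 expected without any difference. The intervals, which are not adjusted for the number of genes, show what size of difference the data leave room for. Apart from Cyp2b10, the genes given here were picked for their small unadjusted p. That their intervals leave out 0 follows from this choice and is no separate result. Cbr3 changed by 3.12 at 56 days and 1.35 at 28 days, a difference of 1.77 (95% interval 0.90 to 2.64, adjusted p = 0.259). Cyp2b10 changed by 6.98 at 56 days and 7.93 at 28 days, a difference of -0.95 (-2.27 to 0.36). Srebf1 changed by -0.97 at 56 days and 0.47 at 28 days, a difference of -1.44 (-2.13 to -0.75, adjusted p = 0.208). Bhmt changed by -0.75 at 56 days and 0.10 at 28 days, a difference of -0.85 (-1.21 to -0.49), and Gpt, alanine aminotransferase, by -0.40 at 56 days and 0.50 at 28 days, a difference of -0.90 (-1.28 to -0.52), both with an adjusted p of 0.109. Pex11a, a peroxisome protein, changed by 0.29 at 56 days and -0.78 at 28 days, and Glyat, which couples acids to glycine, by 0.34 at 56 days and -0.12 at 28 days (adjusted p of the differences 0.208 and 0.196). Glyat lost its call at 56 days without treated mouse 1 or water mouse 5 (0.29).

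**Figure D5:**
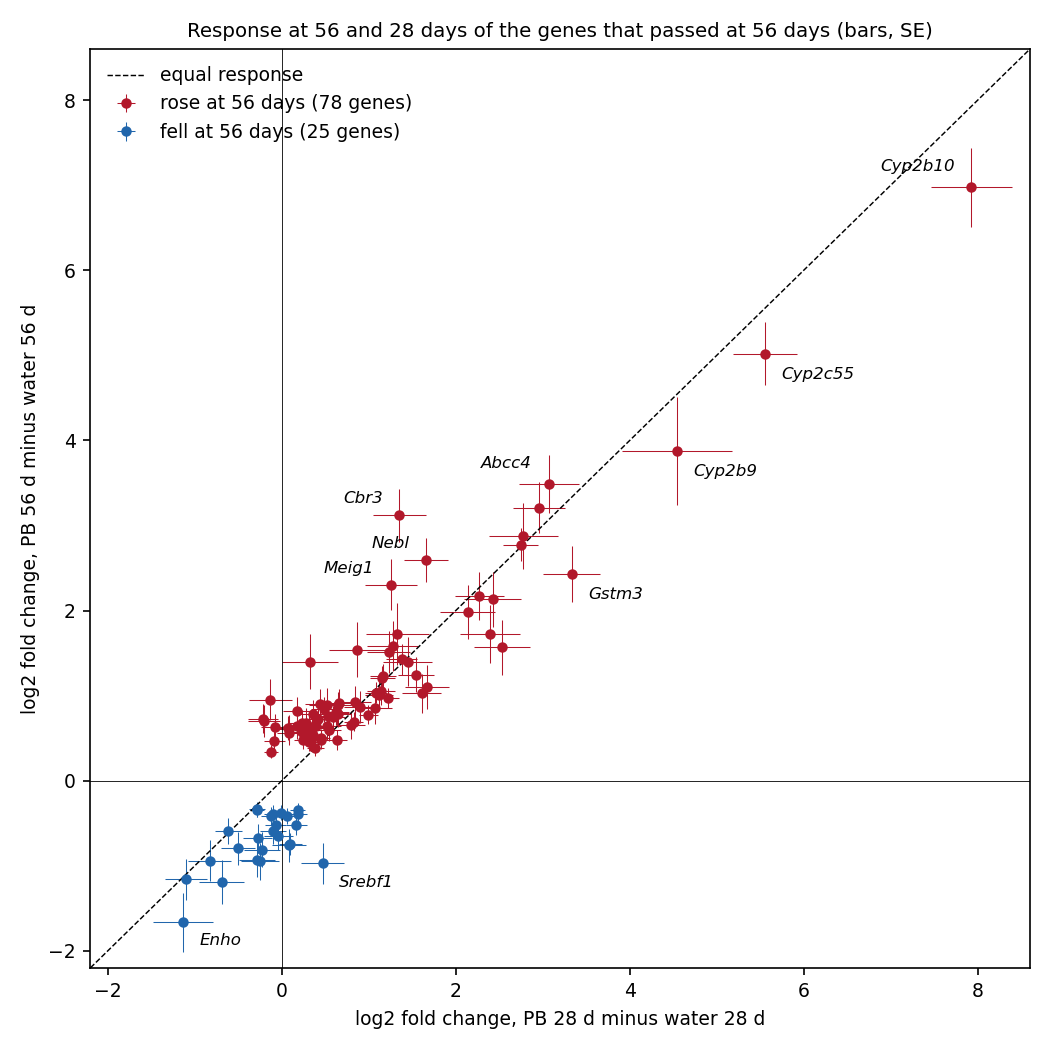
Change (log2) after 56 days of phenobarbital (vertical axis) against that after 28 days (horizontal axis) for the 103 genes that passed at 56 days, with SE bars, each against water controls of the same time. Cbr3 lies above the line of equal response (3.12 at 56 days, 1.35 at 28 days), Gstm3 below it (2.43 and 3.33), and most blue points, which fell at 56 days, lie near 0 on the horizontal axis.

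CITCO, an activator chosen for human CAR, was given at 10 mg/kg daily into the peritoneum for 28 days to 5 mice labelled hCAR/hPXR, which carry the human forms of both receptors, and their 5 controls had carboxymethylcellulose. That exposure differs from phenobarbital in water in strain, route, dose, time and vehicle at once, and the parts of these cannot be told apart. The responses differed for 9 genes (0.0495% of genes tested), and in all 9 the change was larger with phenobarbital. An unadjusted p under 0.05 in limma was found for 888 genes (4.88%), again near the share of 0.05 expected without any difference. Cbr3 changed by 3.12 with phenobarbital and 0.04 with CITCO (adjusted p = 5.48e-06), Nebl by 2.59 and 0.15 (adjusted p = 1.19e-05), and Meg3 by 1.43 and 0.05 (adjusted p = 0.00276). Abcc4 changed by 3.49 with phenobarbital and 1.24 with CITCO (adjusted p = 0.0306), and Gstm2 by 1.25 and -0.17. The other 4 were 1700067K01Rik, Pnliprp1, Cpe and Krt79, a keratin gene, with CITCO changes of 0.14, 0.02, 0.20 and -0.17. Cyp2b10 changed by 6.98 ± 0.467 with phenobarbital and 5.26 ± 0.467 with CITCO, and Cyp2c55 by 5.02 and 2.75, and neither difference passed (adjusted p = 0.876 and 0.0736).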

How the data were processed

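Liver total RNA of 5 mice after 56 days of phenobarbital and 5 water controls was measured on Affymetrix mouse arrays, with Qiazol extraction and labelling by the 3'IVT Express kit, per the labels' protocols. The deposited values are log2 expression for each probe set; RMA is the tool that the submitters' processing notes name. RMA equalises the distributions of the arrays, so a change in total RNA would not be seen, and folds are compressed at both ends of the scale. No version of RMA and no genome build is given in the sources used here, and the files name no batch or scan date, so none could be tested.

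The table held 45037 probe sets, of which 34945 had a single gene symbol in the platform table, 932 several and 9160 none here. Of the 34945, 34741 matched the RefSeq gene table, and no symbol changed. For each gene the brightest single-symbol probe set, by its mean over the 91 arrays, was used, giving 18193 genes, 9010 of them with more than 1 probe set. A means model of 19 groups (72 residual degrees of freedom) was fitted to all 91 arrays with limma 3.58.1 in R 4.3.3, with a mean-variance trend. Tests were two-sided, with Benjamini-Hochberg adjustment over the 18193 genes of each comparison and a threshold of 0.05. The same procedure was tested on simulated data. Groups and replicates came from the titles, and mice were taken as separate replicates because the labels' design states random assignment.

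The genes named are the 12 largest rises and falls with groups apart, clone names passed over, genes fixed in a list, list members that passed and the further members with the largest changes, genes that differed most between exposures, and genes set by 1 array. The 54 gene lists hold 929 members, of which 822 entries were measured. Members and lists were chosen with earlier results of these data known, so they give no independent support. A few genes named beyond these rules, such as Aox1, Ndrg1 and Ackr3, were chosen after their values were seen. Alternatives were other probe set rules, a filter on low genes, no trend, repeated normalisation, array weights, other sets of arrays in the fit and each array left out. Promoter windows came from RefSeq (GRCm38.p6). Tables used Python 3.11.15 and pandas 2.3.3, and figures matplotlib 3.10.9.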

Additional observations from a re-analysis of the deposited data

Results flagged for a closer look

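In 326 groups of 5 livers over 163 named genes, 32 had an extreme liver whose gap to the next was above the 95% critical value of 0.71 of the group's range. Chance alone flags about 1 group in 20 (0.05), but some of these genes were named because 1 array sets their value, so neither the 32 nor the count for one mouse can be read against that rate. Water mouse 5 accounts for 16 of the 32. It was the highest control for Cyp2b9 (11.33), Cyp2b13 (11.67), Fmo2 (9.66), Sult2a2 (8.53), Sult3a1 (8.87), Abcb1a (8.64), Gpt (11.98), Nr1i2 (7.96), Sult1c2 (7.20), Prox1os (8.69) and 2310039H08Rik (11.25), and the lowest for Cyp4a12a (6.02), Elovl3 (6.38), Slco1a1 (6.03), Entpd5 (10.38) and Thap2 (7.14). Prox1os fell with all arrays and changed by -0.39 without water mouse 5 (adjusted p = 0.491 in limma), and it did not pass in a fit of the 10 arrays alone (adjusted p = 0.173).

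Treated mouse 5 was the extreme treated liver for 7 genes: high for Abcc4 (11.23) and Cbr1 (12.09), and low for Car14 (7.25), Hsd3b5 (5.83), Rdh9 (9.5), Slco1a1 (8.46) and Ugt2b1 (13.22). Treated mouse 1 stood out for Meg3 (9.55) and 9130409I23Rik (10.21), treated mouse 2 for Gclm (11.88) and Prox1os (7.48), and treated mouse 3 for Arhgef7 (7.64). Among other water mice, mouse 1 stood out for Pnliprp1 (3.91) and Rian (5.09), mouse 2 for Car14 (8.40) and mouse 4 for Cyp7a1 (9.57).

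The response to phenobarbital for 56 days minus that to CITCO in hCAR/hPXR mice passed the test of the difference in limma for 9 genes: Cbr3 (3.08), 1700067K01Rik (2.64), Nebl (2.44), Abcc4 (2.25), Gstm2 (1.42), Meg3 (1.38), Pnliprp1 (1.18), Cpe (1.03) and Krt79 (0.96).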

How the results depend on the processing

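The count of 103 genes changed after 56 days was 71 to 90 with 1 array left out at a time, and it moved by over 1.5 times under 4 settings: 295 with array quality weights (103 shared), 198 with only the 20 phenobarbital and water arrays in the fit (95 shared), 191 against all 10 water controls of both times (87 shared) and 187 with water mouse 5 left out of a fit of the 10 arrays (86 shared). The last of these 4 settings was chosen after seeing the data. With array weights 190 genes were higher and 105 lower, against 78 and 25. The cause of the larger counts was not tested. The count was 137 in a fit of the 10 arrays alone (78 shared). The count of 0 genes that differed between 56 and 28 days was 1 after a repeated quantile normalisation, 16 with array weights and 0 to 2 with 1 array left out. The count of 9 genes that differed from CITCO was 14 over all probe sets, 33 with array weights and 5 to 13 with 1 array left out, the 5 without CITCO mouse 5. Cyp2b10 (6.80 to 7.26) and Cbr3 (2.47 to 3.59) passed with each array left out. Over single genes and lists, 382 values fell below the threshold under some setting, 262 of them with 1 array left out, 93 newly passed, 200 counts or values moved, 4996 stayed and 0 reversed. By rule, a change of sign in a gene that passed in neither fit was counted as stayed, so the 0 covers only genes that passed in either fit. Fmo2, which did not pass, changed by -0.245 with all arrays and by 0.321 without water mouse 5.

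The replicate numbers gave no sign of pairing. The deviations of same-numbered treated and water mice at 56 days correlated between -0.105 and 0.091, and those of differently numbered mice between -0.217 and 0.327. A pairing that leaves no such correlation would not be seen this way. With the replicate number as a block the counts were 102 for phenobarbital against water (96 shared), 1 for 56 against 28 days and 9 against CITCO.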

Other observations

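Some rises fall outside the pathways described above. Entpd5, a nucleotide phosphatase of the endoplasmic reticulum, read 11.11, 11.21, 11.38, 11.48 and 11.84 in treated livers, against 10.77, 10.80, 10.74, 10.69 and 10.38 in water livers. The groups were apart and it rose by 0.73 ± 0.126 (adjusted p = 9.36e-05 in limma). Pepd, prolidase, which splits proline dipeptides, was among the tightest: it read 10.13 to 10.18 in treated livers and 9.54 to 9.74 in water livers, a rise of 0.50 ± 0.108. Arpp19, a phosphatase regulator, rose by 0.57 ± 0.106 with 10.69 to 11.06 in treated livers and 10.24 to 10.37 in water livers. The protease inhibitor gene Serpinb1a rose by 1.73 ± 0.346, with 7.95, 7.94, 7.06, 7.01 and 6.17 in treated livers, against 5.62, 4.56, 5.41, 5.41 and 6.50 in water livers, where water mouse 5 lay above treated mouse 5. Of the 2 probe sets of Serpinb1a 1 rose. The noncoding RNA Snhg11 rose by 1.73 ± 0.362, with 7.76 to 8.70 in treated livers and 5.33 to 7.85 in water livers, a call lost without water mouse 2 (1.42).

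Livers that were high for one gene of a group were often high for others. Among 17 glutathione and thioredoxin genes, treated mouse 5 was the highest treated liver for 10 (58.8%), against 22.9% of all genes tested, and water mouse 2 was the highest control for 10 (58.8%), against 20.2%. Treated mouse 5 was also the highest for 8 of 20 glutathione transferases (40.0%). Water mouse 5 was the highest control for 9 of 16 ABC transporters (56.2%), against 23.3% of all genes tested, and water mouse 4 for 8 of 12 glucuronidation genes (66.7%), against 17.5%. Treated livers were more even in other lists. Among 32 carbonyl and aldehyde oxidoreductases the largest treated share was 28.1% (treated mouse 2), and among ABC transporters treated mice 1 and 5 each held 25.0%. Genes of a group are not independent, and these shares were not tested.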
